A study of Homo sapiens with 24 samples.

Results

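The 10 genes described here encode members of the BCL2 family, the proteins that decide whether a stressed cell opens its mitochondria and dies by apoptosis. They were chosen by symbol (BCL2, BCL2L1, BAX, BAK1, BID, BIK, BBC3, PMAIP1, BCL2L11 and BAD), and all 10 were found among the 35993 genes of the count table. RNA was measured in 24 libraries of J82 and RT-112, established human cell lines from bladder cancer, with 3 biological replicates in each of 8 groups. In each line the groups were parental cells and 3 newly established derivatives, CD44 Low, CD44 High and CD44v6. The submitters describe these as having low CD44 receptor, high CD44 receptor and high levels of CD44v6, a splice form of this surface receptor for hyaluronan. No drug or other treatment is named for any group. How the new lines were made, and whether each is 1 clone, is not given in the sources used here.

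BCL2 family proteins act at the outer membrane of mitochondria. BCL2 and BCL-XL (the product of BCL2L1) hold cells alive by binding their relatives. BAX and BAK (BAK1) form the pores that release cytochrome c, and the BH3-only proteins set them off, either by activating them or by occupying the pro-survival proteins. Each BH3-only gene answers to its own signals: BBC3 (PUMA) and PMAIP1 (NOXA) are p53 targets, PMAIP1 also rises in the integrated stress response, and BCL2L11 (BIM) is induced by FOXO factors when growth factor signalling is low. These are textbook roles and were not measured here. Counts per gene say nothing on splice forms, protein levels or cell death.

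CD44 itself was in the labelled order in both lines. Its mean level in CPM (counts relative to a library total scaled with TMM factors) was 446 in parental, 275 in CD44 Low, 741 in CD44 High and 810 in CD44v6 cells of J82. The means were 318, 140, 418 and 440 CPM in the same order in RT-112. CD44 Low cells had less CD44 RNA than parental cells of either line (adjusted p = 0.0329 in J82 and 0.00123 in RT-112, edgeR quasi-likelihood test), and its rise over parental cells passed the threshold in J82 but not in RT-112 (adjusted p = 0.272 for CD44 High and 0.163 for CD44v6). Epithelial and urothelial markers summed to 6370 to 10800 CPM in the J82 libraries, where KRT5, KRT20, UPK2 and UPK3A had 0 counts, and to 10500 to 14800 CPM in RT-112, where UPK3A alone had 0. In J82, 6 of the 13 stayed under 1 CPM in every library. Parental means of EPCAM, CDH1 and GATA3 were 1.80, 2.54 and 0.235 CPM in J82 against 331, 318 and 38.4 CPM in RT-112. KRT8 and KRT18 went the other way, at 4644 and 1739 CPM in J82 and 2444 and 1304 CPM in RT-112. The 7 mesenchymal markers summed to 1120 to 1650 CPM in J82 and 335 to 991 CPM in RT-112, where TWIST1 had 0 counts. Parental means of VIM, ZEB1 and ZEB2 were 369, 81.8 and 164 CPM in J82 against 1.89, 1.03 and 0.0926 CPM in RT-112. FN1 was similar (328 and 322 CPM), and SNAI2 was lower in J82 (25.95 against 132.7 CPM). Leukocyte markers stayed at or under 1.87 CPM in sum, and endothelial markers at or under 5.48 CPM. Libraries held 16752825 to 24419670 counts.

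The promoters of the 3 BH3-only genes that carried the largest called changes within a line are shown to let their sequences be read beside those changes. Each is the 250 bases before the RefSeq start of the gene (GRCh38.p14), 5′ to 3′ on the strand of the gene, and capitals mark matches on either strand to 5 motifs: TGACGT (the core of cyclic AMP response elements), GTAAACA (a forkhead element), TGAGTCA (an AP-1 element), CACGTG (an E-box) and GGGCGG (a GC box). The PMAIP1 window is chr18:59899746-59899995 on the plus strand, the BCL2L11 window chr2:111120664-111120913 on the plus strand and the BBC3 window chr19:47232668-47232917 on the minus strand.
PMAIP1: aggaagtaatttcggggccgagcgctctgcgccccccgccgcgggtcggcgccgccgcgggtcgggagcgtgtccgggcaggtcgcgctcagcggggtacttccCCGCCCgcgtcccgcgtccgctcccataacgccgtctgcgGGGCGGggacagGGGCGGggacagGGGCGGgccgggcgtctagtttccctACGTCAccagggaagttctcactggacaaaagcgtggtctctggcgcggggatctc
BCL2L11: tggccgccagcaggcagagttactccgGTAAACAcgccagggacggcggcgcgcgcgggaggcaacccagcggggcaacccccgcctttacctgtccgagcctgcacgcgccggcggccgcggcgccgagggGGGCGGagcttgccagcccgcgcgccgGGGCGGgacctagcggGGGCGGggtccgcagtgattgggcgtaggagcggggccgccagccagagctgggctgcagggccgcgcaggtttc
BBC3: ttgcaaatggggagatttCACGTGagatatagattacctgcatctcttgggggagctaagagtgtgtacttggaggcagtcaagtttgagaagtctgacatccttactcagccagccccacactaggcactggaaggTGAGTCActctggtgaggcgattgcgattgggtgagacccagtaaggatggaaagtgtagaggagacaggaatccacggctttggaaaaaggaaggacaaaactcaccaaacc
The PMAIP1 window held TGACGT on its minus strand, 56 to 51 bases before the start, and 4 GC boxes. GTAAACA lay 223 to 217 bases before the start of BCL2L11, which also had 3 GC boxes. BBC3 had CACGTG at 232 to 227 and TGAGTCA at 113 to 107 bases, and no GC box. Of the 9 genes with a window in the table, BAD also held TGACGT, and BAX and BID also held CACGTG. Among all 35116 windows of this length, 7.1% held TGACGT, 2.98% GTAAACA, 4.2% TGAGTCA, 6.34% CACGTG and 42.6% GGGCGG. The motifs do not overlap one another in these 3 windows, and they were chosen with the expression values known. A match describes letters only.

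The genes differed widely in level. Per kilobase of exon (GENCODE 29 models), PMAIP1 led in parental J82 at 82.6 CPM per kb, followed by BCL2L1 at 42.5, BAD at 33.8 and BAX at 12.1. BCL2 stood at 0.748 and BIK at 0.0772 CPM per kb there. In parental RT-112, BAD led at 31.8 CPM per kb, ahead of BID at 21.1, PMAIP1 at 18.1 and BAK1 at 12.7, and BCL2 was lowest at 0.254. Values below are CPM, which compare a gene with itself and not with another gene.

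**Figure D1:**
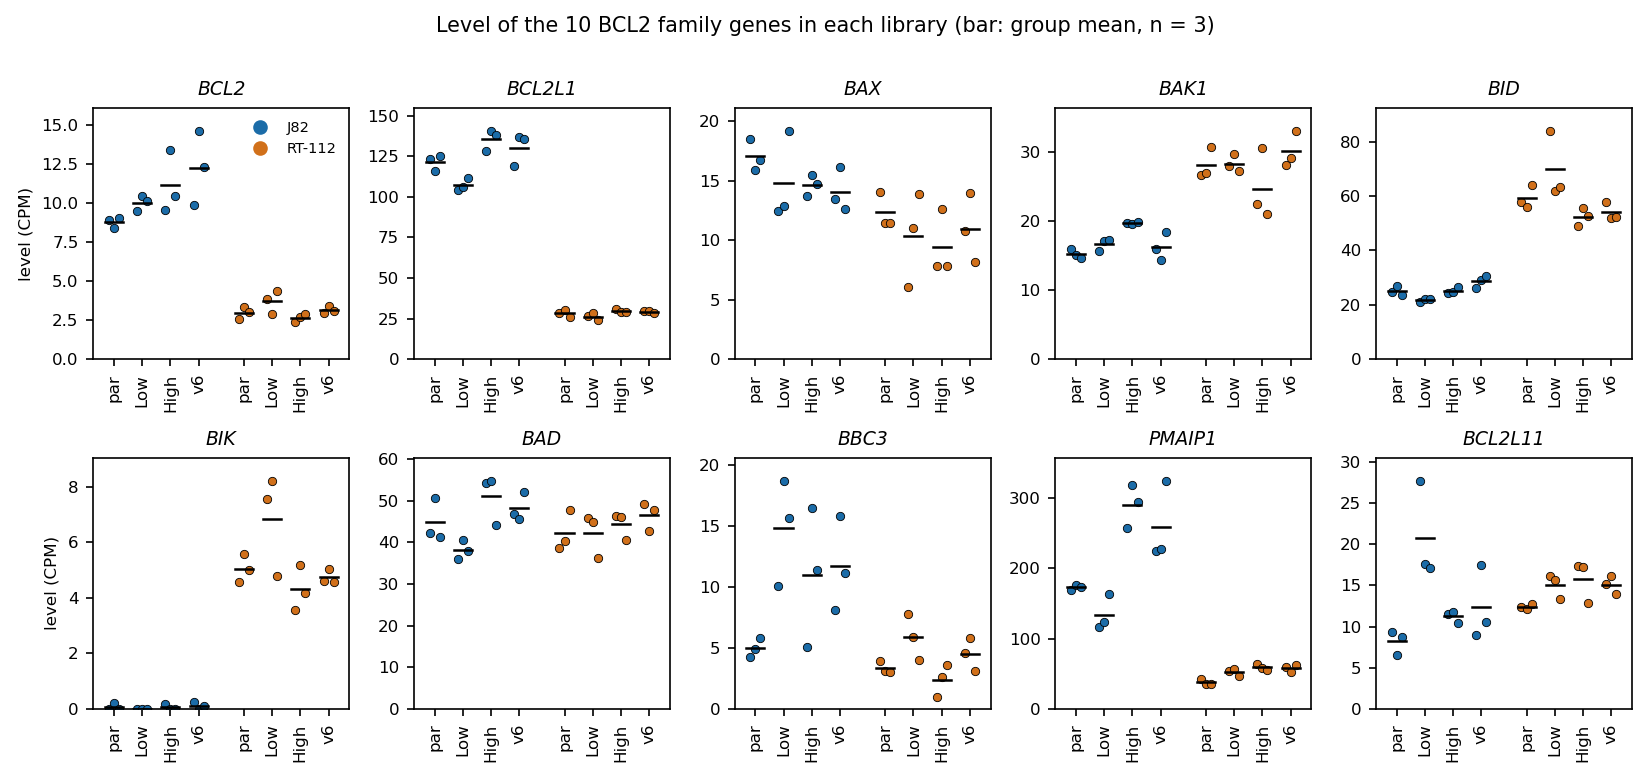
Level of each of the 10 genes in CPM (linear axes from 0, scaled per gene) in the 24 libraries; points are libraries, bars are group means of 3, and par, Low, High and v6 are the groups of J82 (blue) and RT-112 (orange). PMAIP1 and BCL2L1 lie higher in every J82 library than in any RT-112 library, BID, BAK1 and BIK lie lower, and PMAIP1 in J82 is lowest in the 3 CD44 Low libraries.

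The parental lines differed first. Of the 10 genes, 3 were higher and 4 lower in parental J82 than in parental RT-112, against 62% of all 17438 genes called between these lines (31% higher and 31% lower), so the share is near that of genes in general. All p-values in this section are from edgeR's quasi-likelihood test with Benjamini-Hochberg adjustment over all genes tested, and called means an adjusted p under 0.05. In bulk RNA such as this, fewer cells expressing a gene and less RNA per cell cannot be told apart.

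Among the pro-survival genes, BCL2L1 was at 123, 116 and 125 CPM in parental J82 and at 28.3, 30.6 and 25.7 CPM in parental RT-112. The J82 values were 4.31-fold higher (log2 2.11 ± 0.08 SE, adjusted p = 3.77e-15). BCL2 itself read 8.95, 8.38 and 9.03 CPM against 2.58, 3.36 and 3.01 CPM, a log2 difference of 1.55 ± 0.19 (adjusted p = 2.25e-07). For both genes the 12 J82 libraries lay above the 12 RT-112 libraries.

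The pore-forming genes split. BAK1 was at 15.9, 15.1 and 14.7 CPM in parental J82 and at 26.6, 27.0 and 30.6 CPM in parental RT-112, lower in J82 by log2 -0.88 ± 0.13 (adjusted p = 3.12e-06). BAX, its partner, read 18.5, 15.9 and 16.8 CPM in J82 and 14.1, 11.5 and 11.4 CPM in RT-112, a log2 difference of 0.47 ± 0.25 that did not pass (adjusted p = 0.102).

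Of the BH3-only genes, PMAIP1 was higher in J82 and BID, BIK and BCL2L11 were lower. PMAIP1 stood at 169, 176 and 174 CPM in parental J82 and at 43.1, 35.6 and 35.5 CPM in parental RT-112, a 4.56-fold difference (log2 2.19 ± 0.14, adjusted p = 5.01e-12). BID, which caspase-8 cleaves to carry death receptor signals to mitochondria, read 24.7, 26.9 and 23.6 CPM in J82 and 57.7, 56.1 and 64.2 CPM in RT-112 (log2 -1.24 ± 0.11, adjusted p = 1.38e-09). BCL2L11 was at 9.39, 6.56 and 8.77 CPM in J82 and at 12.3, 12.1 and 12.8 CPM in RT-112 (log2 -0.58 ± 0.22, adjusted p = 0.0257). That call was lost without J82 parental replicate 2 (0.0863) or RT-112 parental replicate 3 (0.0632). BAD, which growth factor kinases hold inactive by phosphorylation, differed by 0.08 ± 0.12 (adjusted p = 0.562), and BBC3 by 0.57 ± 0.41 (adjusted p = 0.237).

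BIK, a BH3-only protein of the endoplasmic reticulum, was barely counted in J82. The summed counts over 3 libraries were 4 in parental, 0 in CD44 Low, 4 in CD44 High and 7 in CD44v6 J82, against 309, 449, 243 and 284 in the matching RT-112 groups. All 4 counts of parental J82 came from replicate 2, and all 4 of J82 CD44 High from replicate 1. Scaled to library size, parental RT-112 was 75.8-fold above parental J82, with a 95% counting interval of 29.3 to 280. The ratio was 66.5 (25.6 to 246) in CD44 High and 37.1 (17.8 to 93.1) in CD44v6 cells. For the CD44 Low groups, RT-112 was 127-fold above an assumed floor of 3 counts over the J82 group. The lower 95% counting limit of the kind given above was 103. The intervals and the floor cover counting error only. BIK was too low to be tested within J82.

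Within the lines, the 6 pairs of groups in each gave 15 calls among these genes, and PMAIP1 accounted for 6 of the 15. The share over all genes is given beside each count. In J82, 9 of the 10 genes were tested. Against parental cells, 2 were called in CD44 Low (5.34% of all 15951 genes), 1 in CD44 High (2.94%) and 0 in CD44v6 (2.6%). The 3 calls were all higher than in parental cells. In CD44v6, 3 of the 9 had an unadjusted p under 0.05 (BCL2, PMAIP1 and BBC3), beside 19.7% of all genes. DESeq2 called 2 (PMAIP1 and BBC3), among 1061 genes in all. Against CD44 Low, 4 were called in CD44 High (15.7% of all genes), of which 3 rose (8.83%) and 1 fell (6.9%). CD44v6 gave 2 calls against CD44 Low (9.58%), both higher.

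In RT-112 all 10 genes were tested, among 15645. Against parental cells 1 gene was called in each of CD44 Low (3.2% of all genes), CD44 High (0.511%) and CD44v6 (0.614%), and each time it was PMAIP1, higher. Against CD44 Low, 2 genes were called in CD44 High (16%) and 1 in CD44v6 (16%), all lower. CD44v6 and CD44 High differed in 0 of the genes in either line, and in 0% of all genes. DESeq2 called 0 of the 10 there as well. At an unadjusted p under 0.05 there was 1 in J82 (BAK1) and 1 in RT-112 (BBC3), beside 9.63% and 4.25% of all genes. DESeq2 called 74 and 2 genes of all tested.

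**Figure D2:**
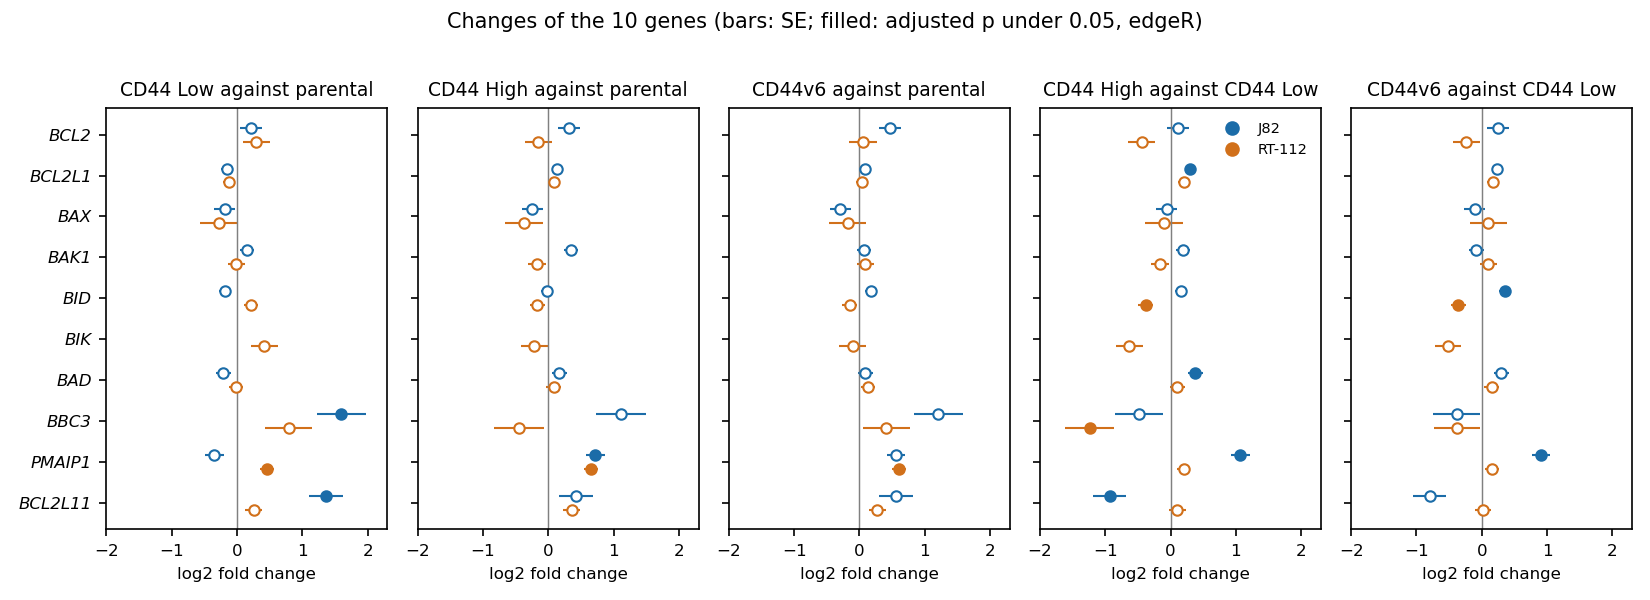
Log2 fold change (x axis, bars are SE) of each gene in 5 comparisons within J82 (blue) and RT-112 (orange); filled points passed an adjusted p of 0.05. PMAIP1 is filled in each of the 5 panels, for both lines in CD44 High against parental, and BCL2L11 and BBC3 lie furthest from 0 in J82 CD44 Low against parental.

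PMAIP1 (NOXA), whose protein binds MCL1, was the gene that changed most often. In J82 it read 116, 124 and 163 CPM in CD44 Low, 169, 176 and 174 CPM in parental, 224, 228 and 325 CPM in CD44v6 and 257, 318 and 295 CPM in CD44 High cells. All CD44 Low libraries lay below all others, and the CD44v6 and CD44 High libraries lay above the parental ones. CD44 High was 2.10-fold above CD44 Low (log2 1.07 ± 0.14, adjusted p = 0.000274) and CD44v6 1.88-fold (log2 0.91 ± 0.14, adjusted p = 0.00131). Both calls held in all 11 alternative analyses of those comparisons.

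Neighbours in that order were harder to separate. CD44 Low against parental J82 gave log2 -0.35 ± 0.14 (adjusted p = 0.174), CD44v6 against parental 0.56 ± 0.14 (adjusted p = 0.0566) and CD44v6 against CD44 High -0.16 ± 0.14 (adjusted p = 0.709). CD44 High against parental was called at 0.72 ± 0.14 (adjusted p = 0.0167), and that call was lost without any 1 of the 3 parental libraries or CD44 High replicate 2 (adjusted p 0.0641 to 0.0943).

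In RT-112, PMAIP1 was lowest in parental cells and not in CD44 Low. It read 43.1, 35.6 and 35.5 CPM in parental, 54.6, 56.3 and 47.6 CPM in CD44 Low, 59.8, 52.9 and 62.2 CPM in CD44v6 and 63.4, 58.9 and 55.1 CPM in CD44 High cells. The parental libraries lay below the other 9, whose groups overlapped. The rise over parental cells was 0.45 ± 0.11 in CD44 Low (adjusted p = 0.0409), 0.65 ± 0.11 in CD44 High (adjusted p = 0.0181) and 0.61 ± 0.11 in CD44v6 (adjusted p = 0.025) on the log2 scale. CD44 High against CD44 Low gave 0.20 ± 0.11 (adjusted p = 0.231). Each of the 3 calls was lost without parental replicate 2 or 3. CD44 Low also needed its replicates 1 and 2, CD44 High its replicates 1 and 2, and CD44v6 its replicates 1 and 3 (adjusted p 0.05 to 0.167 over the 12 fits that lost the call). The CD44 High call was also lost in a fit of the 6 libraries alone (0.105). The 3 comparisons share their parental libraries.

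The lines differed in PMAIP1 wherever CD44 Low entered. The difference between the lines in a comparison was tested as an interaction over all 24 libraries, the log2 change in J82 minus that in RT-112. For CD44 High against CD44 Low it was 0.90 ± 0.18 (adjusted p = 0.00291) and for CD44v6 against CD44 Low 0.74 ± 0.18 (adjusted p = 0.0157), and both held in all 16 alternative analyses. For CD44 Low against parental it was -0.83 ± 0.18 (adjusted p = 0.0265), which was lost in 9 of the 12 fits that left out 1 library (adjusted p 0.053 to 0.114) and without the filter on low counts (0.0529). The 9 were each parental J82 library, J82 CD44 Low replicates 1 and 2, RT-112 parental replicates 2 and 3, and RT-112 CD44 Low replicates 1 and 2. For CD44 High against parental the difference was 0.07 ± 0.18.

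**Figure D3:**
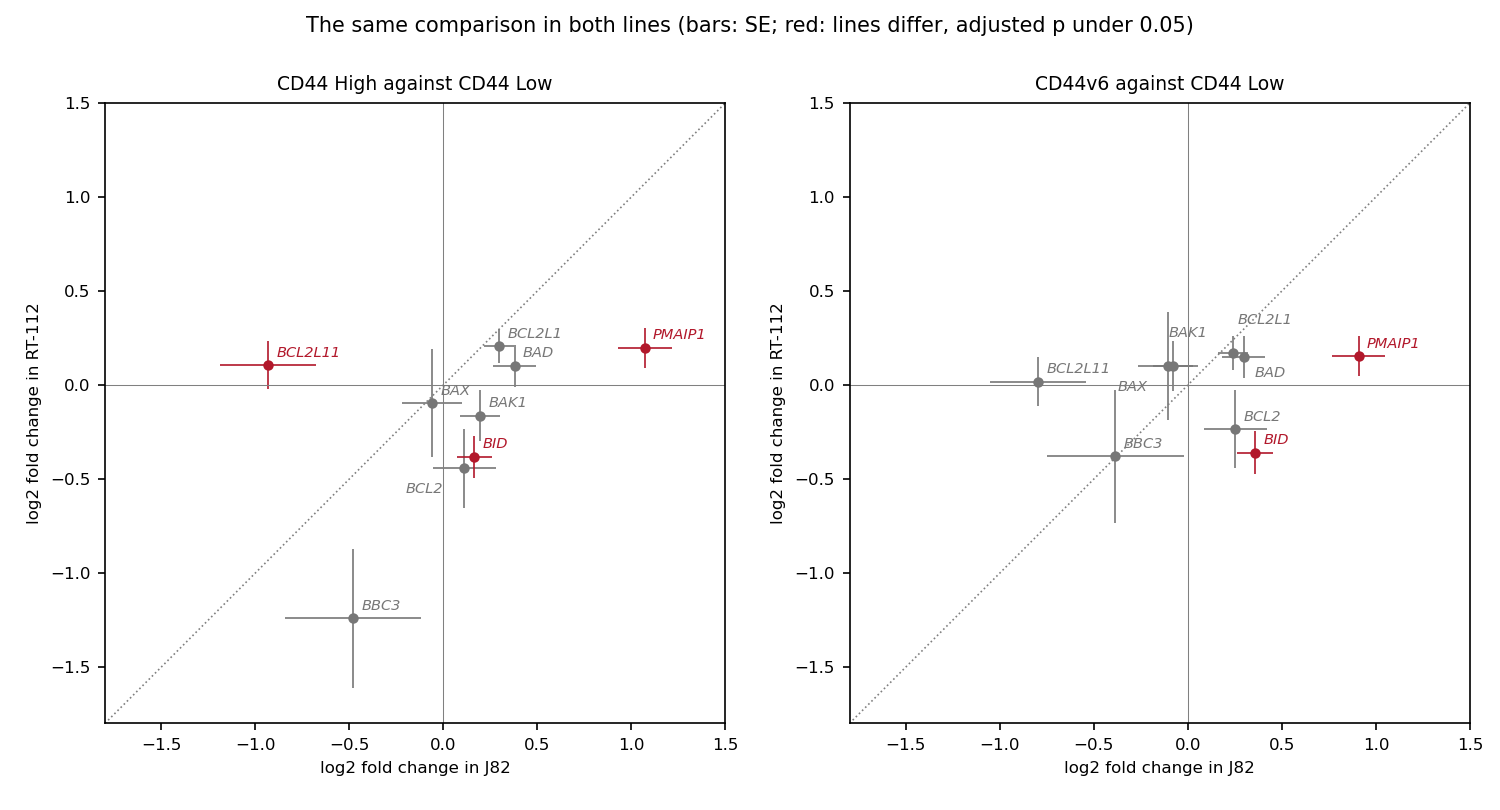
Log2 change of each gene in J82 (x axis) against the same change in RT-112 (y axis), left for CD44 High and right for CD44v6, both against CD44 Low; bars are SE, the dotted line marks equal change, and red marks genes whose lines differed at an adjusted p under 0.05. PMAIP1 and BID are red in both panels and BCL2L11 in the left one. BIK is left out because it was not tested in J82.

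BCL2L11 (BIM), which binds every pro-survival member of the family and can activate BAX and BAK, was highest in J82 CD44 Low. The libraries read 27.7, 17.6 and 17.1 CPM there, 9.39, 6.56 and 8.77 CPM in parental, 11.5, 11.7 and 10.4 CPM in CD44 High and 8.95, 17.5 and 10.5 CPM in CD44v6 J82. CD44 Low replicate 1 stood above its other two replicates, which in turn lay above all parental and CD44 High libraries, while CD44v6 replicate 2 reached the CD44 Low range. CD44 Low was 2.56-fold above parental (log2 1.36 ± 0.26, adjusted p = 0.00948), a call lost without parental replicate 2 (1.21, adjusted p = 0.0586).

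CD44 High fell by 0.93 ± 0.25 from CD44 Low on the log2 scale (adjusted p = 0.0259), but not without CD44 Low replicate 1 (-0.66, adjusted p = 0.128) or any 1 of the CD44 High libraries (adjusted p 0.0678 to 0.0802). CD44v6 against CD44 Low gave -0.80 ± 0.25 (adjusted p = 0.0693), and -1.15 (adjusted p = 0.00675) without CD44v6 replicate 2. In RT-112 the 12 libraries ran from 12.1 to 17.3 CPM and no comparison was called. The lines differed in CD44 High against CD44 Low by -1.01 ± 0.30 (adjusted p = 0.0357), a call that held in 5 of 16 alternatives. It was lost without the filter on low counts (0.0596), and without J82 CD44 Low replicate 1, any J82 CD44 High library, any RT-112 CD44 Low library, or RT-112 CD44 High replicate 1 or 2 (0.0562 to 0.129).

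The BCL2L11 locus overlaps MIR4435-2HG, a long non-coding RNA gene on the other strand in GENCODE 29, and whether the counting used strand is not given in the sources used here. MIR4435-2HG, at 638 to 1140 counts per library, differed by 0.01 ± 0.07 between J82 CD44 Low and parental (adjusted p = 0.968) and by -0.04 ± 0.07 between CD44 High and CD44 Low (adjusted p = 0.752). Between the parental lines it was higher in J82, by 0.50 ± 0.10 (adjusted p = 0.000129), while BCL2L11 was lower. BAD likewise overlaps GPR137 (250 to 530 counts), and BCL2L1 the antisense gene ABALON (0 to 89 counts). GPR137 differed by 0.19 ± 0.16 between J82 CD44 High and CD44 Low (adjusted p = 0.461). These overlaps are of whole gene spans, and whether exons overlap was not examined. Where exons of both genes cover the same bases, their reads cannot be told apart without strand.

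BBC3 (PUMA), another BH3-only protein that binds all pro-survival members, was low and variable. In J82 it read 4.25, 4.91 and 5.79 CPM in parental, 10.1, 18.7 and 15.6 CPM in CD44 Low, 5.10, 16.5 and 11.4 CPM in CD44 High and 8.11, 15.8 and 11.1 CPM in CD44v6 cells. The CD44 Low and CD44v6 libraries lay above all parental ones, while CD44 High replicate 1 lay within the parental range. In each J82 derivative replicate 1 was lowest and replicate 2 highest. In parental cells replicate 1 was also lowest, but replicate 3 was highest. The spread of BBC3 thus followed the replicate number in the derivatives, and its cause was not tested. CD44 Low was 3.03-fold above parental (log2 1.60 ± 0.38, adjusted p = 0.0289). That call was lost without any 1 of the parental libraries or CD44 Low replicate 2 or 3 (1.36 to 1.72, adjusted p 0.0518 to 0.128). CD44 High and CD44v6 against parental gave 1.12 ± 0.38 (adjusted p = 0.150) and 1.21 ± 0.38 (adjusted p = 0.113), and DESeq2 called both (0.0451 and 0.0216). An edgeR fit with a term for replicate number called both as well (adjusted p = 0.0342 and 0.0216).

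In RT-112 the gene read 3.95, 3.09 and 3.06 CPM in parental, 7.78, 5.88 and 4.02 CPM in CD44 Low, 1.01, 2.62 and 3.58 CPM in CD44 High and 4.58, 5.82 and 3.11 CPM in CD44v6 cells. CD44 High lay below CD44 Low in every library, by log2 -1.24 ± 0.37 (adjusted p = 0.0383). The call was lost without CD44 Low replicate 1 or 2 or CD44 High replicate 1 or 2 (adjusted p 0.0635 to 0.145) and in a fit of the 6 libraries alone (0.0988). J82 gave -0.48 ± 0.36 in the same comparison (adjusted p = 0.406), and the difference between the lines was 0.79 ± 0.56 (adjusted p = 0.425). Over its 6 comparisons in each line, BBC3 was called once in J82 and once in RT-112.

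BID moved in opposite directions in the lines. In J82 it read 24.7, 26.9 and 23.6 CPM in parental cells and 21.1, 22.3 and 22.0 CPM in CD44 Low. The values were 24.3, 24.6 and 26.6 CPM in CD44 High and 26.4, 29.2 and 30.6 CPM in CD44v6 cells. The CD44 Low libraries lay below all others, and CD44 Low against parental gave log2 -0.18 ± 0.09 (adjusted p = 0.285). CD44v6 was above CD44 Low by 0.36 ± 0.09 (adjusted p = 0.0308), and CD44 High by 0.16 ± 0.09 (adjusted p = 0.264). In RT-112, CD44 Low had the highest mean, at 84.0, 62.0 and 63.4 CPM. Parental cells, at 57.7, 56.1 and 64.2 CPM, overlapped it (CD44 Low against parental 0.21 ± 0.11, adjusted p = 0.334). The values were 48.8, 55.5 and 52.5 CPM in CD44 High and 57.7, 52.0 and 52.2 CPM in CD44v6. Neither of these groups overlapped CD44 Low. BID was lower than in CD44 Low by log2 -0.38 ± 0.11 in CD44 High (adjusted p = 0.0365) and -0.36 ± 0.11 in CD44v6 (adjusted p = 0.0466).

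RT-112 CD44 Low replicate 1 weighed on the RT-112 values. Without it the changes were -0.24 (adjusted p = 0.151) and -0.21 (adjusted p = 0.193). They were also lost without CD44 High replicate 1 (0.123) or 3 (0.0551) and without any 1 of the CD44v6 libraries (0.0678 to 0.145), in fits of the 6 libraries alone (0.108 and 0.0648), and for CD44v6 without the filter on low counts (0.0601). The J82 call was lost without any 1 of the CD44 Low libraries or CD44v6 replicate 2 or 3 (0.0512 to 0.0835), without the filter (0.0593) and in the 6 libraries alone (0.175). The difference between the lines held better, at 0.71 ± 0.15 for CD44v6 against CD44 Low (adjusted p = 0.00586, called in all 16 alternatives) and 0.57 ± 0.15 for CD44 High against CD44 Low (adjusted p = 0.0172), lost only without RT-112 CD44 High replicate 1 (0.0555).

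BCL2L1 and BAD made small changes within J82. BCL2L1 read 104, 106 and 112 CPM in CD44 Low and 128, 141 and 138 CPM in CD44 High, with no overlap, a log2 rise of 0.30 ± 0.08 (adjusted p = 0.0256). The call was lost without any 1 of the CD44 Low libraries or CD44 High replicate 2 or 3 (0.0503 to 0.0917). CD44v6 against CD44 Low gave 0.24 ± 0.08 (adjusted p = 0.0841), and RT-112, at 23.9 to 30.9 CPM throughout, gave 0.21 ± 0.09 for CD44 High against CD44 Low (adjusted p = 0.144).

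BAD read 35.9, 40.6 and 37.9 CPM in J82 CD44 Low and 54.2, 54.9 and 44.1 CPM in CD44 High, a log2 rise of 0.38 ± 0.12 (adjusted p = 0.0425). It was lost without CD44 Low replicate 1 or 3 or CD44 High replicate 1 or 2 (0.1 to 0.148), without the filter on low counts (0.0634) and in the 6 libraries alone (0.0625). Its RT-112 libraries ran from 36.3 to 49.2 CPM with no call.

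In the main edgeR fits, BCL2, BAX, BAK1 and BIK were called in none of their tested comparisons within a line. BCL2 in J82 ran from 8.38 to 9.03 CPM in parental and from 9.88 to 14.7 CPM in CD44v6, without overlap (log2 0.46 ± 0.17, adjusted p = 0.165). BAX spanned 12.5 to 19.2 CPM in J82 and 6.07 to 14.1 CPM in RT-112, with log2 differences between groups of -0.37 to 0.20. BAK1 stood at 19.7, 19.5 and 19.9 CPM in J82 CD44 High, above all parental libraries (0.35 ± 0.11, adjusted p = 0.110), and was called in a fit of the 6 libraries alone (adjusted p = 0.0472). BIK in RT-112 read 7.56, 8.22 and 4.77 CPM in CD44 Low and 3.56, 5.18 and 4.19 CPM in CD44 High (-0.63 ± 0.21, adjusted p = 0.0534). DESeq2 called it there (-0.65, adjusted p = 0.0348), as did edgeR without CD44 Low replicate 3 (-0.82, adjusted p = 0.0116) or CD44 High replicate 2 (-0.80, adjusted p = 0.0348). Without that CD44 Low library BIK was also called in CD44v6 against CD44 Low (-0.71, adjusted p = 0.0248). Without RT-112 CD44 High replicate 2, BAK1 was called in CD44v6 against CD44 High (0.47, adjusted p = 0.0419). BAK1 has a pseudogene, BAK1P1, with a row of its own, and reads could be split between them.

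For CD44 High and CD44v6 against parental, 0 of the 10 genes differed between the lines (0.241% and 0.138% of all 17438 genes called). At an unadjusted p under 0.05 there were 2 (BAK1 and BBC3) and 0, beside 9.43% and 14.4% of all genes. DESeq2 called 0 of the 10 in both, among 238 and 463 genes in all. The interaction called 1 gene for CD44 Low against parental (1.06%), 3 for CD44 High against CD44 Low (10.7%, or 6.24% with a positive and 4.42% with a negative difference of J82 minus RT-112), 2 for CD44v6 against CD44 Low (7.52%) and 0 for CD44v6 against CD44 High (0.00573%), where BAK1 alone had an unadjusted p under 0.05 and DESeq2 called 0. The median change of the genes tested lay between -0.16 and 0.32 over the 12 comparisons within a line, beside medians of -0.02 to 0.02 over all genes.

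Genes around a called gene on its chromosome showed medians of -0.11 to 0.22. For each called change, the 10 nearest tested genes on either side were read from the order of the RefSeq gene table, 16 to 20 per gene because BID lies near a chromosome end. Around PMAIP1 on chromosome 18 the median change was 0.05 in J82 CD44 High against CD44 Low, beside 1.07 for PMAIP1. Of these 20 neighbours 4 were called, beside 15.7% of all genes. Around BCL2L11 on chromosome 2 it was -0.07 in J82 CD44 Low against parental, and around BBC3 on chromosome 19 it was 0.22. BID in RT-112 fell while its neighbours had a median of 0.19 in both comparisons. BAD was closest to its surroundings, at 0.38 beside 0.17.

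**Figure D4:**
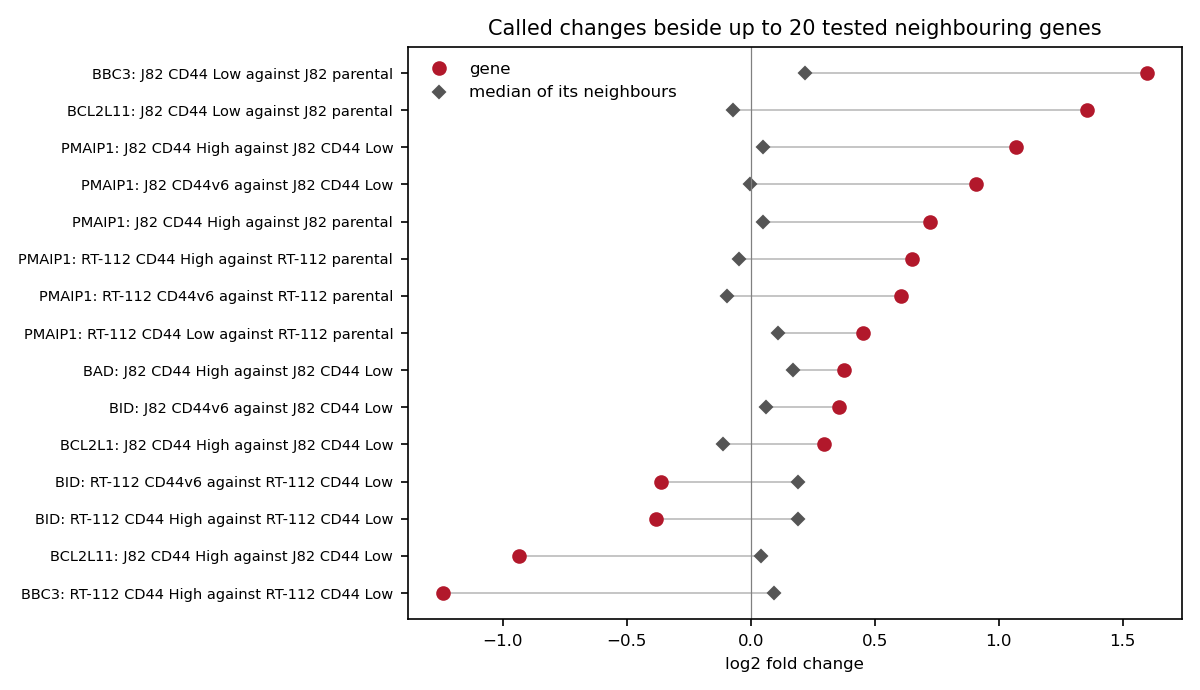
Log2 fold change of a gene (red) and the median over its 16 to 20 nearest tested genes on the chromosome (grey diamonds), for the 15 changes called within a line. The medians lie between -0.11 and 0.22, and the red points between -1.24 and 1.60.

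Other genes of the pathway were read from 4 lists. In J82 CD44 High against CD44 Low, 0 of the 9 other BCL2 family genes tested rose and 2 fell, 3 of 17 apoptosome, caspase and inhibitor genes rose and 0 fell, 2 of 10 death receptor genes rose and 1 fell, and 2 of 15 p53 pathway genes rose and 0 fell. Of all genes 8.83% rose and 6.9% fell. The median log2 changes of these lists were 0.04, 0.23, 0.15 and 0.17, beside -0.02 over all genes. The 2 that fell in the family were the BH3-only genes BMF (7.67 to 1.61 CPM, log2 -2.29 ± 0.43, adjusted p = 0.00292) and HRK (-1.95 ± 0.53, adjusted p = 0.0253). HRK was under 3 CPM in both groups, and its call was lost in 4 of the 6 fits that left out 1 library (up to 0.0974). The inhibitor of apoptosis genes BIRC3 and BIRC2, which encode the ubiquitin ligases cIAP2 and cIAP1, rose by 2.36 ± 0.18 and 0.97 ± 0.11 (adjusted p = 2.67e-06 and 6.03e-05). CDKN1A, the p53 target that encodes the cell cycle inhibitor p21, rose by 1.22 ± 0.22 (adjusted p = 0.00237).

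For CD44 High cells of RT-112 against their CD44 Low cells, 0 of 8 other BCL2 family genes were called, 1 of 17 genes of the apoptosome list rose and 1 fell, 0 of 9 death receptor genes rose and 3 fell, and 2 of 16 p53 pathway genes rose and 3 fell. Of all genes 9.01% rose and 7.02% fell. The list medians were -0.08, -0.24, -0.32 and -0.20, beside 0.02 over all genes. The death receptors TNFRSF1A and TNFRSF10B fell by 0.60 ± 0.13 and 0.55 ± 0.14 on the log2 scale (adjusted p = 0.00793 and 0.0205). RRM2B, a p53-induced ribonucleotide reductase subunit, fell by 1.08 ± 0.27 (adjusted p = 0.0184). ZMAT3 was at 30.3 CPM in CD44 High and 62.3 CPM in CD44 Low (adjusted p = 0.0406). The calls of TNFRSF10B, ZMAT3 and RRM2B were each lost in 2 to 5 of the 6 fits that left out 1 library.

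The list genes called in the same direction in both lines were BIRC5, TNFSF10 and MCL1. How many of all genes were called so was not counted. BIRC5 (survivin) rose in CD44 High against CD44 Low by 0.50 ± 0.09 in J82 and 0.52 ± 0.07 in RT-112 (adjusted p = 0.00248 and 0.00049). In the same comparison TNFSF10, which encodes the death ligand TRAIL, fell by 0.96 ± 0.18 and 0.48 ± 0.15 (adjusted p = 0.00276 and 0.0406). The RT-112 call was lost in 5 of its 6 fits that left out 1 library (up to 0.123). MCL1, the pro-survival partner of NOXA, rose in CD44v6 against parental by 0.36 ± 0.08 in J82 and 0.46 ± 0.09 in RT-112 (adjusted p = 0.0407 and 0.0429), each lost in 5 of 6 such fits (up to 0.199 and 0.2). PMAIP1 was the 1 gene of the 10 called higher in both lines in the same comparison, CD44 High against parental. Of all genes, 1.71% were called higher there in J82 and 0.249% in RT-112.

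The parental lines also differed along the p53 list. Of its 16 genes, 2 were higher and 13 lower in parental J82 than in parental RT-112, against 31% of all genes in each direction, with a median of -1.62 beside -0.0042 over all genes. CDKN1A was at 8.26 CPM in J82 and 83.8 CPM in RT-112 (log2 -3.35 ± 0.23, adjusted p = 3.76e-11), and PHLDA3 at 5.25 and 70.5 CPM (-3.74 ± 0.19, adjusted p = 1.76e-13). FAS, a p53 target that was placed in the death receptor list and not in this one, was at 3.01 and 33.8 CPM (-3.49 ± 0.33, adjusted p = 4.71e-09). The death receptor list was split between the parental lines. Of its 10 genes tested, 4 were higher and 4 lower in J82, with a median of -0.37. Of the p53 targets among the 10 genes, PMAIP1 was higher in J82, and BAX and BBC3 did not pass.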

How the data were processed

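Total RNA was sequenced in 24 libraries. The authors deposited raw counts per gene symbol in 1 table; per the submitters' processing notes, HISAT2, StringTie and GRCh37 were used, with roles, versions and strand setting not given in the sources used here. All columns matched a sample by title (0 unmatched) and 0 lines lacked a gene name. In R 4.3.3, edgeR 4.0.16 (filterByExpr, TMM, glmQLFit and glmQLFTest) was fitted per line on 12 libraries (15951 genes in J82, 15645 in RT-112), and on all 24 (17438 genes) for the parental lines and the interactions. Tests were two-sided. P-values were adjusted over all genes tested, and called means under 0.05. CPM use TMM factors over 24 libraries. The common biological coefficient of variation was 0.183, 0.152 and 0.17.

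The 10 genes, the lists and the rule for naming list genes (called in the same direction in both lines, or the 2 largest called changes per list and line in CD44 High against CD44 Low; not all are described, and the result of 1 gene is not reported here) were chosen with earlier results of these data known. Depth of 16752825 to 24419670 counts leaves counting error larger for genes of low count, such as BIK. Replicates differed beyond sampling noise (chi-square per degree of freedom 6.03 to 58.7). Biological replicates are stated, but not what their numbers mark. In J82 CD44v6 against CD44 High, each library deviated most closely with its own number (correlations 0.113, 0.109 and 0.252), a pairing read from the data. The same held for J82 CD44 Low and CD44 High against parental, with correlations of at most 0.079.

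Alternatives were median-of-ratios factors, no filter, DESeq2 1.42.0 Wald tests, a replicate block, leaving out each library and only the 6 libraries compared. Of the symbols, 94.5% matched RefSeq (GRCh38.p14), used for gene order and promoters. GENCODE 29 gave exon lengths and overlaps. The counts may rest on another annotation. Figures used matplotlib 3.10.9.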

Additional observations from a re-analysis of the deposited data

Results flagged for a closer look

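The change between groups differed between J82 and RT-112, by the interaction test over 24 libraries, in 6 cases. PMAIP1 differed by -0.83 in CD44 Low against parental (adjusted p = 0.0265, edgeR), where it stood at a mean of 134.5 against 173.3 CPM in J82 and 52.8 against 38.1 CPM in RT-112. Its difference was 0.90 for CD44 High against CD44 Low cells (adjusted p = 0.00291) and 0.74 for CD44v6 against CD44 Low cells (adjusted p = 0.0157). BID differed by 0.57 in CD44 High against CD44 Low cells (adjusted p = 0.0172) and by 0.71 in CD44v6 against CD44 Low (adjusted p = 0.00586). By mean, CD44 Low was the lowest group of J82 and the highest of RT-112, where it overlapped parental cells. BCL2L11 differed by -1.01 in CD44 High against CD44 Low cells (adjusted p = 0.0357). Comparisons that share the CD44 Low libraries are not independent of each other.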

How the results depend on the processing

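Of the 28 calls among the 10 genes, 0 changed direction in any alternative. Of 156 gene and comparison pairs not called, 48 changed sign in some alternative and 15 were called in some. The number of the 10 genes called moved by more than 1.5 times as follows. With the replicate block it was 2 for J82 CD44 High and 2 for J82 CD44v6 against parental, 0 for RT-112 CD44 Low against parental, and 0 for both RT-112 CD44 High and CD44v6 (0) against CD44 Low. With DESeq2 it was 2 for J82 CD44 High and 2 for CD44v6 against parental, 4 for J82 CD44v6 against CD44 Low, and 2 for the difference between the lines in CD44 Low against parental. Without the filter it was 1 for J82 and 0 for RT-112 CD44v6 against CD44 Low, and 0 for that difference between the lines. With only the 6 libraries compared it was 2 for J82 CD44 High against parental, 1 for J82 CD44v6 against CD44 Low, 0 for RT-112 CD44 High against parental, and 0 for RT-112 CD44 High and 0 for CD44v6 against CD44 Low.

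Leaving out 1 library gave 0 to 2 calls for CD44 Low and for CD44 High against parental in J82, 0 in all fits for CD44v6, 1 to 3 for CD44 High against CD44 Low, 1 to 2 for CD44v6 against CD44 Low and 0 for CD44v6 against CD44 High. In RT-112 it gave 0 to 1 for each group against parental, 0 to 3 and 0 to 2 for CD44 High and CD44v6 against CD44 Low, and 0 to 1 for CD44v6 against CD44 High. Between the parental lines it gave 6 to 7. The differences between the lines ranged over 0 to 1 for CD44 Low, 0 to 1 for CD44 High and 0 for CD44v6 against parental, 1 to 3 and 2 to 4 for CD44 High and CD44v6 against CD44 Low, and 0 to 1 for CD44v6 against CD44 High. The cause was not tested, and such fits have fewer libraries.

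The block is an arithmetic alternative where numbers were not shown to pair the samples. In J82, every library correlated best with its own number for CD44 Low and CD44 High against parental, with correlations of at most 0.079. Same-number correlations were larger in some other pairs. Replicates 1, 2 and 3 gave 0.057, 0.076 and 0.378 for J82 CD44v6 against CD44 Low. They gave 0.038, 0.113 and 0.23 for J82 CD44 High against CD44 Low. Replicate 3 gave -0.305 for RT-112 CD44v6 against CD44 High. With the block, adjusted p was 0.0558 for PMAIP1 in RT-112 CD44 Low against parental, 0.0599 for BID and 0.0757 for BBC3 in CD44 High against CD44 Low cells of RT-112, 0.0682 for BID in RT-112 CD44v6 against CD44 Low, 0.103 for BCL2L11 between the parental lines and 0.0503 for its difference between the lines, while BBC3 was called in J82 CD44 High (0.0342) and CD44v6 (0.0216) and PMAIP1 in J82 CD44v6 (0.0248) against parental. Calls over all genes also moved: with DESeq2 they went from 852 to 1488 (J82 CD44 Low against parental), 469 to 910 (CD44 High), 415 to 1061 (CD44v6), 0 to 74 (J82 CD44v6 against CD44 High), 500 to 985, 80 to 292 and 96 to 587 (RT-112 CD44 Low, CD44 High and CD44v6 against parental) and 0 to 2 (RT-112 CD44v6 against CD44 High). For the differences between the lines DESeq2 moved them from 185 to 536, 42 to 238 and 24 to 463 (CD44 Low, CD44 High and CD44v6 against parental), 1312 to 2095 (CD44v6 against CD44 Low) and 1 to 64 (CD44v6 against CD44 High, where the block gave 2). Without the filter they were 253 in J82 and 60 in RT-112 for CD44v6 against parental, and with the block 303 and 58 in RT-112 CD44 Low and CD44v6 against parental. Fits on 6 libraries gave 1501, 1350, 148, 636 and 1 in J82 (CD44 Low, CD44 High and CD44v6 against parental, then CD44v6 against CD44 Low and CD44 High), and 1126, 43 and 953 in RT-112 against parental and 1171 for CD44 High against CD44 Low.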

Other observations

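Genes outside the family that followed the 10 most closely were found by correlating log2 CPM, centred on the mean of each line, over the 24 libraries. The values are descriptive, since libraries of a group share their line and all tested genes were searched. LSG1, a GTPase of ribosome assembly, was nearest to PMAIP1 (r = 0.884; 0.937 within J82 and 0.744 within RT-112), followed by CNTNAP3B (0.875), which has near-identical copies that counting could split. SCAF8 (0.903) and IGF2R (0.862) were nearest to BCL2L11, at 0.941 and 0.895 within J82 and 0.676 and 0.608 within RT-112. BBC3 was followed by NFIL3 (0.843), a transcription repressor of the bZIP class, and ZDHHC7 (0.834). BID was followed by KIF5C (0.829) and CORO1B (0.81), BCL2L1 by CASZ1 (0.857) and TLN2 (0.839), and BAD by TMEM14B (0.847) and ALDH1A3 (0.835). Among the 10 themselves, the 3 highest values were those of PMAIP1 with BCL2L1 (0.688), BCL2 with BBC3 (0.669) and PMAIP1 with BAD (0.637). PMAIP1 and BCL2L11 gave -0.246, and PMAIP1 and BBC3 0.004.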
